A study of Rattus norvegicus with 24 samples.

Results

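The chitinase family of the rat lung was followed here through 5 genes, Chial1, Chia, Chit1, Chi3l1 and Chid1, among the 21255 genes and unnamed probes tested in an inhalation study of hexanal. The members were the chitinase and chitinase-like symbols to which an accession on the array could be matched, and the family was chosen by the measured differences of Chial1 and Chia between the hexanal doses and clean air, which were already known. Those differences, and every other contrast of a member between a dose and clean air, are therefore given as descriptions. Where a call rule was applied to them it only counts members beside the share of all genes, and it supports nothing. Each member had 1 probe with 1 spot per array, and all 5 lay well above background on 24 of 24 arrays.

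Hexanal is a volatile aldehyde of indoor air, released among other sources by fungi and bacteria. Lung RNA came from 24 Fischer-344 rats of both sexes, and each RNA was labelled with Cy3 and hybridised alone to 1 array. The growth protocol of the samples gives an age of 7 to 8 weeks. The study's methods give 7 weeks at purchase, before acclimation and exposure, so the rats were older when the lungs were taken. The control group breathed filtered clean air, and the low-dose, middle-dose and high-dose groups inhaled hexanal at 600, 1000 and 1500 ppm, with 3 males and 3 females in each group. All groups shared the strain and the housing, and exposure ran in a nose-only chamber for 4 h a day on 5 days a week. The sample labels name the doses in ppm, whereas their treatment protocol gives the same numbers in mg per cubic metre and a length of 5 weeks, which differs from the length in the study's methods. The pieces were whole lung tissue, so fewer cells of a type and less RNA per cell cannot be told apart in any value below. The markers of alveolar type II cells, the surfactant-making cells of the air sacs, were well above background on all 24 arrays for 11 of 11 genes measured, among them the surfactant protein gene Sftpc. The list also held Ager, which marks the type I cells of the air sacs.

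Chitin is the tough N-acetylglucosamine polymer of fungal walls, insect cuticles and mite bodies, and mammals do not make it. Rodents nevertheless carry glycoside hydrolase family 18 genes whose products either cut chitin or only bind it. Chia, the acidic mammalian chitinase, and Chit1, the chitotriosidase of macrophages, are true chitinases. Chi3l1, known as YKL-40 or BRP-39, binds chitin without cutting it and is secreted in inflammation and tissue repair. Chial1 is annotated as an acidic chitinase-like gene, and Chid1 codes for a chitinase-domain protein of the lysosome that binds stabilin-1. In rodent lung, Chia is known as a secreted product of the airway and alveolar epithelium and as a gene that type 2 cytokines induce.

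In the gene order of the rat assembly GRCr8, Chia and Chial1 lie on chromosome 2 with 1 protein-coding gene, the chitinase-like Chi3l3, between them. Chit1 and Chi3l1 are direct neighbours on chromosome 13, and Chid1 lies on chromosome 1 between Polr2l and Tspan4 on one side and Ap2a2 and Muc6 on the other. No probe was matched to Chi3l3. The promoters of Chia and Chial1 are shown because these members moved together in the values that follow. Each window runs from 250 bases before to 50 after the RefSeq start site, 5′ to 3′ along the gene's own strand, with the TATA box letters TATAAA and the E-box letters CANNTG in capitals.
Chia, GRCr8 chr2:196302437-196302736, plus strand: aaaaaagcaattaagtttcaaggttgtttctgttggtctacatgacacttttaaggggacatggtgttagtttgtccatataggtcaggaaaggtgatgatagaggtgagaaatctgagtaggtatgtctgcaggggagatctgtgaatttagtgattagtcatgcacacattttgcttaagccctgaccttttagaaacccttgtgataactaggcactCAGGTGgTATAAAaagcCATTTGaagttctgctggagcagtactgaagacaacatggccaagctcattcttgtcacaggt
Chial1, GRCr8 chr2:196565689-196565988, minus strand: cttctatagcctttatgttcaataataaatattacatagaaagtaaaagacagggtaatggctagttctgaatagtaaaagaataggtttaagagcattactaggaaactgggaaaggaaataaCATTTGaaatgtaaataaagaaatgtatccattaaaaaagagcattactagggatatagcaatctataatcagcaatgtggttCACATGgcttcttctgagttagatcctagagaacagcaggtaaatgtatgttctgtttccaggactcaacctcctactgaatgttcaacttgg
Both strands were searched for each motif. The Chia window held 1 TATAAA at position -23 from the start site, with E-boxes at -30 and -13 that did not overlap it. The Chial1 window held E-boxes at -126 and -43 and no TATAAA. Of 33469 rat promoter windows of the same length, 14.2% held TATAAA and 72.1% held CANNTG, so the E-box was a common sequence. Neither window held the AP-1 letters TGACTCA, present in 4.63% of all windows. At the best ungapped offset the 2 windows matched at 33.5% of 239 letters, within the 30.5% to 33.9% of the 10 pairs of members. A letter match is a description of the window and not a site of binding, and the start site that the table gives for Chial1 lies inside its annotated gene span.

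Chial1 and Chia were the members that stood furthest above control in exposed lungs, and both were highest in the middle-dose group rather than the high-dose group. Chid1 was also higher at each dose, by less. All levels are log2 processed signals relative to the 75th percentile of the rat's own array, a scale on which 1 unit is a doubling and on which probes of different genes are not compared. Chial1 ranged from -2.57 to -1.67 in the control group, with a median of -2.22. It ranged from -2.28 to -0.96 at 600 ppm (median -1.54), from -1.23 to -0.41 at 1000 ppm (median -1.15), and from -1.92 to -1.37 at 1500 ppm (median -1.54). All 6 middle-dose rats lay above every control rat and above every high-dose rat, whereas 4 of 6 low-dose and 4 of 6 high-dose rats lay above the highest control. The difference from control was 0.57 at 600 ppm, 1.22 at 1000 ppm and 0.60 at 1500 ppm, each with a standard error of 0.19, or 1.49-, 2.33- and 1.51-fold. In males the differences were 0.56, 1.17 and 0.75 in order of dose, and in females 0.58, 1.26 and 0.45.

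Chia, the acidic mammalian chitinase itself, followed the same order of groups. Its level ranged from 3.07 to 3.76 in the control group (median 3.50) and from 3.16 to 4.37 at 600 ppm (median 4.11). It ranged from 4.16 to 4.90 at 1000 ppm (median 4.27) and from 3.88 to 4.33 at 1500 ppm (median 4.12). All 6 rats of the middle-dose and all 6 of the high-dose group lay above the highest control, and 4 of 6 low-dose rats did so. The differences were 0.47, 0.96 and 0.62 in order of dose, each with a standard error of 0.18, or 1.38-, 1.95- and 1.54-fold. In males they were 0.45, 0.88 and 0.60, and in females 0.48, 1.04 and 0.65.

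Between the exposed groups, Chial1 was higher at 1000 than at 600 ppm by 0.65 and lower at 1500 than at 1000 ppm by a difference of -0.62, each with a standard error of 0.19. The same steps of Chia were 0.49 and -0.34, with a standard error of 0.18. The low-dose and high-dose groups were neighbours that did not differ beyond their spread, at 0.03 for Chial1 and 0.16 for Chia. The order of Chial1 means was thus control (-2.18 ± 0.31, SD, n = 6), 600 ppm (-1.61 ± 0.45), 1500 ppm (-1.58 ± 0.20) and 1000 ppm (-0.96 ± 0.35). For Chia the means, taken through the groups in that order, were 3.48 ± 0.27, 3.94 ± 0.44, 4.10 ± 0.18 and 4.44 ± 0.35.

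**Figure D1:**
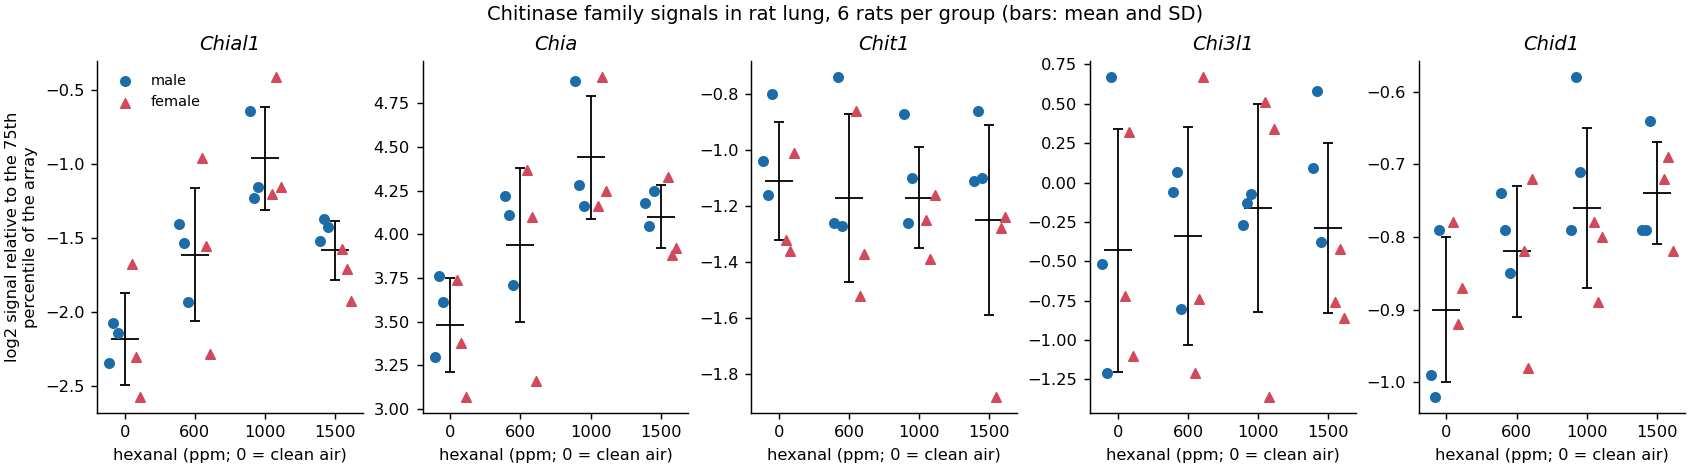
Log2 signal of the 5 chitinase family genes against the hexanal dose in ppm, one point per rat (circles males, triangles females), with bars for the mean and SD of 6 rats. Chial1 and Chia are highest at 1000 ppm, where all 6 rats lie above the control group, while Chit1, Chi3l1 and Chid1 overlap the control group at each dose.

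The macrophage chitinase Chit1 showed no separation of the groups. Its level ranged from -1.36 to -0.80 in the control group (median -1.10), from -1.52 to -0.74 at 600 ppm (median -1.27), from -1.39 to -0.87 at 1000 ppm (median -1.20) and from -1.88 to -0.86 at 1500 ppm (median -1.18). The 4 ranges overlapped throughout, and the differences from control were -0.06, -0.06 and -0.13 with a standard error of 0.15. Chi3l1, the chitin-binding protein without enzyme activity, varied most between rats. It ranged from -1.21 to 0.67 in the control group (median -0.62), from -1.21 to 0.67 at 600 ppm (median -0.40), from -1.36 to 0.51 at 1000 ppm (median -0.10) and from -0.86 to 0.58 at 1500 ppm (median -0.40). Its differences of 0.08, 0.26 and 0.14 were all below their standard error of 0.37. No neighbours in the order of Chit1 or Chi3l1 means differed beyond their spread.

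Chid1, the lysosomal member, lay in a narrow band. It ranged from -1.02 to -0.78 in the control group (median -0.90), from -0.98 to -0.72 at 600 ppm (median -0.81), from -0.89 to -0.58 at 1000 ppm (median -0.78) and from -0.82 to -0.64 at 1500 ppm (median -0.75). The ranges overlapped, with 2, 3 and 3 of 6 rats above the highest control in order of dose. The differences were 0.08, 0.14 and 0.15 with a standard error of 0.06, or 1.06- to 1.11-fold, all under the 1.5-fold threshold, and no neighbouring groups in the order differed beyond their spread. The spread around the group means, as a residual SD, was 0.67 for Chi3l1 and 0.09 for Chid1, at percentiles 94.8 and 5.9 of all genes tested, whose median was 0.23. Chial1, Chia and Chit1 lay between, at 0.34, 0.33 and 0.27.

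Genes counted as called where they differed by 1.5-fold or more with an unadjusted p-value from limma under 0.05, the thresholds of the study's methods. By this rule 0 of 5 members were called at 600 ppm, where 0.616% of all genes were called. At 1000 ppm 2 of 5 members, Chial1 and Chia, were called higher, against 1.29% of all genes. At 1500 ppm the same 2 members were called higher, against 0.701% of all genes. The methods' t-test called 0, 2 and 2 of the 5 in order of dose. With no threshold on the fold, 2, 3 and 3 of 5 members had an unadjusted limma p-value under 0.05, against 4.33%, 8.99% and 6.97% of all genes. The member added at the higher doses was Chid1. Complete separation above the control group, as Chial1 and Chia showed at 1000 ppm, was found for 0.259% of all genes, and, as Chia showed it at 1500 ppm, for 0.311%. Because the family was picked with these contrasts known, nothing is read from the counts. The folds at 1500 ppm lay close to the 1.5-fold threshold. Chial1 fell below it when control rat 1, 22 or 23 or high-dose rat 17 or 18 was left out (0.52 to 0.57), and Chia when control rat 23 (0.54) or high-dose rat 36 (0.58) was left out. At 600 ppm Chial1 passed it without control rat 2 or 21 or low-dose rat 8 or 28 (0.60 to 0.71), and Chia without low-dose rat 28 (0.62).

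The arrays lay on 6 slides of 4 arrays, each slide held rats of 1 sex, and no slide held control rats together with middle-dose or high-dose rats. With the slide as a block, those contrasts run through the low-dose and middle-dose rats that share slides. Each slide with control rats held 1 low-dose rat, male rat 6 or female rat 26, so every contrast with control under the block rests on these 2 rats. Both had the highest Chial1 and Chia levels among the low-dose rats of their sex. Each slide with high-dose rats held 1 middle-dose rat, 13 or 33. Under that block Chial1 was higher by 1.00, 1.95 and 1.52 in order of dose, with standard errors of 0.25, 0.33 and 0.41, and Chia by 0.81, 1.59 and 1.49 with 0.25, 0.33 and 0.41. The differences were larger than without the block, and both genes passed the 1.5-fold threshold at 600 ppm as well, through rats 6 and 26. Within the 2 slides that held control and low-dose rats, Chial1 was higher in the exposed rat by 0.78 in males and 1.22 in females, and Chia by 0.66 and 0.97. Within the 2 slides that held low-dose and middle-dose rats, Chial1 was higher at 1000 ppm by 0.79 and 1.11, and Chia by 0.67 and 0.90. Within the 2 slides of middle-dose and high-dose rats, Chial1 differed by -0.29 in males and -0.58 in females, and Chia by 0.00 and -0.21. On every slide the lower dose held the higher position numbers, so dose and position on the slide cannot be told apart in these differences. Chi3l1 changed its sign under the block, to -0.21, -0.32 and -0.74, with standard errors of 0.55, 0.73 and 0.91.

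**Figure D2:**
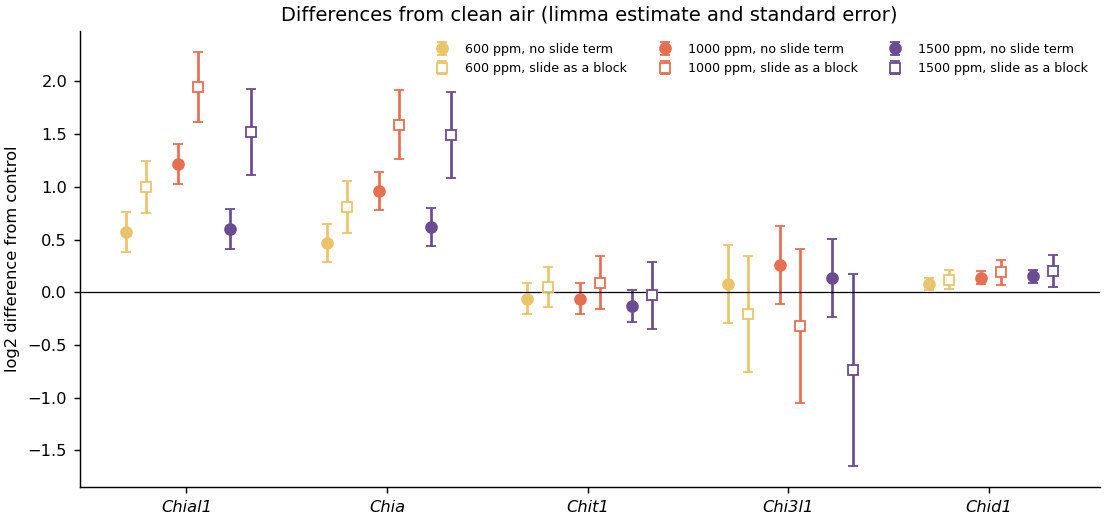
Log2 difference of each dose from the control group for the 5 genes, as limma estimates with standard errors, without a slide term (filled circles) and with the slide as a block (open squares). Chial1 and Chia lie above 0 at each dose in both fits, and their values with the slide as a block are the larger ones, while Chit1 and Chi3l1 lie within 1 standard error of 0 in both.

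Sex was not part of how the family was picked, and it was tested. The female minus male difference was -0.05 for Chial1 (95% interval -0.33 to 0.24), -0.10 for Chia (-0.37 to 0.17), -0.27 for Chi3l1 (-0.81 to 0.26) and -0.03 for Chid1 (-0.11 to 0.06). None of these 4 passed the limma test, whose p-values adjusted over all genes were 0.831, 0.592, 0.463 and 0.693. Chit1 was the exception. It stood at -1.05 ± 0.19 in males and -1.30 ± 0.25 in females (SD, n = 12), a difference of -0.26 with a standard error of 0.09 and a 95% interval of -0.45 to -0.06. It was lower in females in 4 of 4 groups, by differences of -0.23, -0.16, -0.19 and -0.44 from control to the high-dose group.

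The limma adjusted p-value of the Chit1 sex difference was 0.0481, on the edge of the 0.05 threshold. The exact permutation test, two-sided over 160000 assignments of sex within the dose groups, gave p = 0.0133, or 0.0665 after Benjamini-Hochberg adjustment over the 5 members. Since each slide held 1 sex, the slide was also taken as a random block, and the adjusted p-value from limma was then 0.142. Leaving out 1 rat kept the difference between -0.30 and -0.20 and gave adjusted p-values from 0.0149 to 0.0857, under 0.05 in 8 of 24 fits. Those were the fits without control rat 2 or 23, low-dose rat 6, 8 or 26, middle-dose rat 12 or 33, or high-dose rat 38, and the call was lost without any 1 of the other 16 rats. Across the array 24.9% of genes passed the sex test, or 13.3% with the slide as a random block, so 1 of 5 members was close to that background.

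The dose effects were also compared between the sexes, as the female minus the male difference from control. The limma test found 0 of 5 members at any dose at an adjusted p-value under 0.05, which 5.02% of all genes reached at 1500 ppm. It found 0 of 5 at an unadjusted one, against 4.99%, 9.41% and 20.2% of all genes at an unadjusted p-value under 0.05 in order of dose. The intervals were wide. For Chial1 at 1000 ppm the difference between the sexes was 0.09 with a 95% interval of -0.76 to 0.93, and for Chia 0.16 with -0.67 to 0.98. The largest was that of Chi3l1 at 1500 ppm, -0.63 with an interval of -2.24 to 0.99, where males stood at 0.10 ± 0.48 and females at -0.68 ± 0.23 (SD, n = 3). It did not pass the test (adjusted p = 0.702 from limma). Each slide held 1 sex, so these comparisons of the sexes are also comparisons of slides. With the slide as a block, that of Chi3l1 at 1500 ppm was -2.75 (adjusted p = 0.442 from limma). That of Chial1 at 1500 ppm went from -0.30 to 0.45 (adjusted p = 0.826 from limma), and no member passed at any dose.

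**Figure D3:**
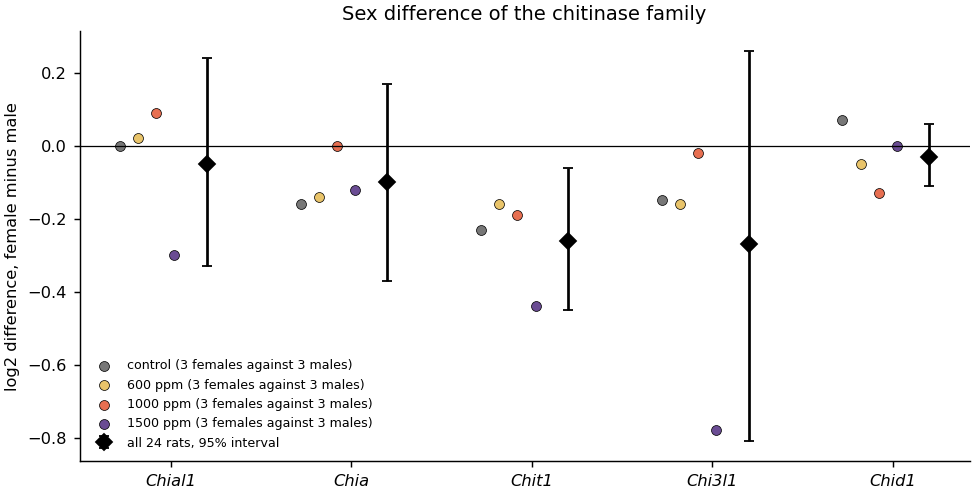
Female minus male log2 difference of the 5 genes within each dose group (small circles, 3 females against 3 males) and over all 24 rats (diamonds, with the 95% interval). Chit1 lies below 0 in 4 of 4 groups, and the intervals of the other 4 genes include 0.

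Chial1 and Chia also varied together from rat to rat inside the groups. After the mean of each dose-by-sex group was taken away, their Pearson r was 0.94 and Spearman's rho was 0.94 over 24 rats, with permutation p-values within those groups of 4e-05 and 8e-05, or 0.0004 and 0.0008 after Benjamini-Hochberg adjustment over 10 pairs of members. Without the 2 rats farthest from the median of Chial1, r was 0.93. With slide means taken away in place of group means it was 0.96, and with nothing taken away 0.95. In the control group, female rat 21 had the highest Chial1 level (-1.67) and one of the highest Chia levels (3.74), while female rat 23 had the lowest of both (-2.57 and 3.07). Low-dose female rat 28 (-2.28 and 3.16) lay within the control range of both genes. The probe sequences were not used here, so whether the 2 probes can bind each other's transcript was not tested.

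**Figure D4:**
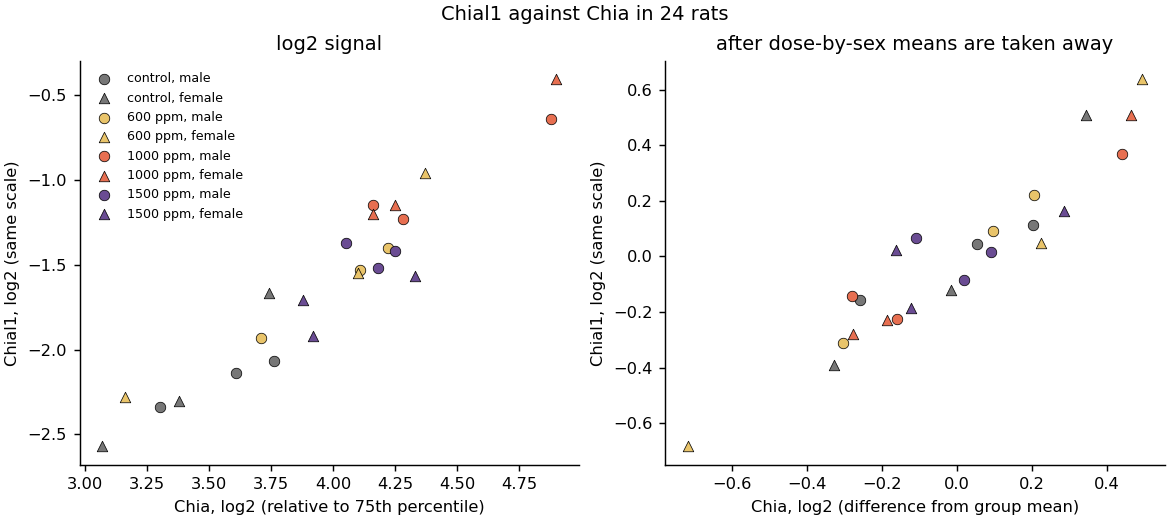
Log2 signal of Chial1 against that of Chia in 24 rats, as measured (left) and after the mean of each dose-by-sex group was taken away (right), with circles for males, triangles for females and colours for the groups. The points run along one line in both panels, with r of 0.95 and 0.94.

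The other 9 pairs did not pass. The nearest were Chia with Chi3l1, at r = -0.50 and an adjusted permutation p-value of 0.317 within groups, Chial1 with Chi3l1 at -0.47 (permutation, 0.317) and Chi3l1 with Chid1 at 0.45 (permutation, 0.317). The neighbours Chit1 and Chi3l1 had an r of 0.11.

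Likeness was ranked over the 24 rats by Pearson r among 11299 genes with a symbol that lay well above background on all arrays, as a description, since the points share dose, slide and scaling. For Chial1 the nearest genes were Chia (0.95), the beta-tubulin gene Tubb4b (0.71) and Lrba (0.68). For Chia they were Chial1 (0.95), Tubb4b (0.73) and Trappc6a (0.71). Inside the dose-by-sex groups the r of Tubb4b dropped to 0.26 with Chial1 and 0.33 with Chia, whereas Trappc6a stood at 0.83 with Chia. Chia ranked 1 of 11299 for Chial1 both over all rats and inside the groups. Chit1 was most like Mgll (0.77), which codes for the monoglyceride lipase, Mfge8 (0.76), a secreted protein that bridges phagocytes and dying cells, and Pafah2 (0.75). Chi3l1 was most like Macir (0.73), Bzw2 (0.68) and Rbbp7 (0.68). Chid1 was most like the alpha-tubulin genes Tuba1b (0.76) and Tuba1c (0.70) and like Polr1c (0.70), a subunit of RNA polymerases I and III.

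Genes that act with the chitinases, type 2 immunity genes and markers of cell types were counted in lists. Across 124 list genes tested, limma called 0 at 600 ppm (3 had an unadjusted p-value under 0.05), 13 higher and 0 lower at 1000 ppm, and 1 higher at 1500 ppm, and 0 passed an adjusted p-value of 0.05 at any dose (18 and 5 had an unadjusted one under 0.05 at 1000 and 1500 ppm). The 13 lay in the lists for cardiac muscle (5), type 2 immunity (4), airway secretory cells (3) and neutrophils (1). The lists for chitin breakdown and chitin sensing held 0 of them. The methods' t-test called 0, 16 and 0 of the 124. Of all genes tested, limma called 0.616% at 600 ppm, and called 1.29% and 0.701% higher at 1000 and 1500 ppm. An unadjusted limma p-value under 0.05 was reached by 4.33%, 8.99% and 6.97% of all genes in order of dose. With the slide as a block none of the 13 genes was called at 1000 ppm, nor was the 1 gene at 1500 ppm. Of the 124 genes, 6 were well above background on fewer than 5 of 6 control arrays and so were tested only through an exposed group, and without them 11 of 118 were called at 1000 ppm. The family relative Ctbs, the lysosomal chitobiase, was the 1 name matched to a probe among 8 relatives in glycoside hydrolase family 18, and differed by -0.13, 0.03 and -0.07 (standard error 0.26). All 14 genes of the list for chitin and N-acetylglucosamine breakdown were tested. The list also held lysosomal enzymes for other sugars, such as Man2b1, Fuca1 and Glb1. Of the 14 genes limma called 0 at any dose, with 0, 0 and 1 at an unadjusted p-value under 0.05. Their median difference was -0.02, 0.00 and -0.07, against 0.00, 0.00 and 0.01 over all genes. Of 16 genes for chitin sensing and Chi3l1 receptors, 13 were tested and limma called 0 at any dose, with 2, 1 and 0 at an unadjusted p-value under 0.05. Their medians were 0.02, -0.01 and -0.04. Among them Il13ra2, the Chi3l1 receptor, was dim and differed by 0.53, 0.42 and -0.17 with a standard error of 0.40, and Cd44, a hyaluronan receptor, by 0.01, -0.08 and 0.04 with 0.10.

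The type 2 immunity and tuft cell list held 22 tested genes of 32, and 4 were called higher at 1000 ppm, against 1.29% of all genes. With no threshold on the fold, 0, 4 and 2 of the 22 had an unadjusted limma p-value under 0.05 in order of dose. Clca1, a secreted goblet cell product, was higher by 2.56 (standard error 1.09), Itln1, a lectin of goblet cells, by 2.46 (1.13), Ccl11, the eosinophil-attracting eotaxin, by 1.00 (0.39) and Il25, a tuft cell cytokine, by 0.81 (0.33). Their adjusted p-values from limma were between 0.515 and 0.539. The median of the list was 0.07, 0.07 and 0.01 in order of dose. The control and middle-dose ranges overlapped for all 4: Itln1, for example, ran from -8.75 to -1.27 in the control group and from -3.59 to 0.32 at 1000 ppm. At 1500 ppm only Itln1 was called, by 2.36 (adjusted p = 0.716), and the slide block brought this to 0.59, which was not called. Il25 was well above background on 3 of 6 control arrays and was tested only through the groups where it was higher, so its call is no support. Without genes of that kind 3 of 20 were called at 1000 ppm. The type 2 cytokine genes Il4, Il5 and Il13 lay below the filter, well above background on 4, 3 and 8 of 24 arrays.

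Markers of cell types that could carry or dilute the chitinase signal were counted in the same way, and their part in the Chial1 and Chia values was not tested beyond the figures given. Of 14 airway secretory markers, 10 were tested. Against 1.29% of all genes, 3 of them were called higher at 1000 ppm. These were Scgb3a1, a secretoglobin (2.95, standard error 1.27), Bpifb1, a secreted airway protein (2.39, 0.82), and Cyp2f4, a club cell cytochrome P450 (0.89, 0.35), and limma gave them adjusted p-values of 0.517, 0.515 and 0.515. The log2 of the list's summed signal ran from 7.48 to 8.10 in the control group, 7.52 to 8.33 at 600 ppm, 7.84 to 8.33 at 1000 ppm and 7.53 to 8.49 at 1500 ppm. This sum, like those of the lists below, adds linear signals of different probes. The brightest genes weigh most in it, here Scgb1a1 (control mean 6.97). Scgb1a1, the defining club cell secretoglobin, differed by -0.16, -0.03 and -0.15. Scgb3a2, another secretoglobin of the list, went the other way, by 0.26, 0.52 and 0.30, under the 1.5-fold threshold at each dose. The fit that took the slide into account put its middle-dose difference at 0.64, and there it was called. Of the 10 genes tested, 8 had a higher estimate at 1000 ppm than in the control group. An unadjusted limma p-value under 0.05 was reached by 0, 5 and 0 of the 10 in order of dose. The shares over all genes were 4.33%, 8.99% and 6.97%. Inside the groups the list had an r of -0.25 with Chial1 and -0.31 with Chia (permutation, adjusted p = 0.553 and 0.508 over 16 correlations).

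Cardiac muscle genes were called higher at 1000 ppm in 5 of 10 tested, against 1.29% of all genes. They were led by Mybpc3 (3.41, standard error 1.61), Tnnt2 (2.48, 1.17), Tnni3 (2.02, 0.87) and Pln (1.49, 0.65), all with adjusted p-values between 0.517 and 0.548 from limma. In order of dose, 0, 5 and 0 of the 10 had an unadjusted limma p-value under 0.05, against 4.33%, 8.99% and 6.97% of all genes. The median of the list was 0.95, 2.25 and 0.63 in order of dose, and with the slide as a block it was 0.69, 1.21 and -1.62, with 9 of 10 genes below 0 at 1500 ppm. Its summed level ran from 1.90 to 5.31 in the control group, 2.43 to 6.04 at 600 ppm, 3.19 to 7.12 at 1000 ppm and 1.90 to 7.13 at 1500 ppm. Nppa, a defining atrial gene, was well above background on 5 of 24 arrays. Inside the groups the list had an r of -0.29 with Chial1 and -0.44 with Chia (permutation, adjusted p = 0.508 and 0.274). Mybpc3 was well above background on 3 of 6 control and 6 of 6 middle-dose arrays and was tested only through that group, so its call is no support. Without genes of that kind 4 of 8 were called at 1000 ppm, with a median of 1.81.

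Of the macrophage markers, 17 of 20 were tested and 0 were called at any dose, with no gene at an unadjusted p-value under 0.05. Their median was 0.11, -0.09 and -0.16, and their summed level ran from 6.27 to 6.67 in the control group, 6.30 to 6.78 at 600 ppm, 6.03 to 6.64 at 1000 ppm and 6.01 to 6.46 at 1500 ppm. That sum is mostly set by the brightest probes, Ctsd and Car4, with control means of 5.83 and 4.12. The next brightest, Gpnmb, stood at 2.31, and Mrc1 at -2.10. Marco, which marks alveolar macrophages, was well above background on 1 array. Inside the groups, the macrophage mean had an r of -0.58 with Chia and -0.51 with Chial1, each with an adjusted permutation p-value of 0.0883, which missed the threshold. The 11 genes of the type II list gave r = 0.59 with Chia and 0.53 with Chial1 (permutation, adjusted p = 0.126 and 0.162), with 0 of them called by limma at any dose (0, 0 and 1 at an unadjusted p-value under 0.05) and medians of 0.03, -0.04 and -0.10, or 0.04, 0.04 and 0.06 with the slide as a block. Without the type I marker Ager, the 10 other genes gave r = 0.56 with Chia and 0.48 with Chial1 (permutation, adjusted p = 0.147 and 0.230). S100a8, a neutrophil calcium-binding protein, was the only 1 of 8 neutrophil markers called, by 0.71 at 1000 ppm (standard error 0.34, adjusted p = 0.548 from limma). At that dose 1.29% of all genes were called higher. No endothelial (8 tested), gastric and salivary (6) or lymphoid (9) marker was called by limma at any dose, while 1 endothelial gene at 1000 ppm and 1 gastric and salivary gene at each dose had an unadjusted p-value under 0.05. The salivary gene Bpifa2 and the gastric gene Cblif were well above background on 0 of 24 arrays.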

How the data were processed

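Lung RNA of 24 rats was measured, and the intensities the authors deposited are processed signals written by Agilent Feature Extraction for one-colour arrays. Background was subtracted and no scaling between arrays was done. The deposited table of the series equals them for at least 99.69% of probes per array. Control spots and outliers were left out. Of 30367 probes, 18355 were matched by accession to symbols. The log2 signal minus the array's 75th percentile (1700.9 to 3132.9) was used, and 70.66% to 81.74% of probes were well above background. A probe was kept if 5 or more of the 6 arrays of some group had it well above background, and the brightest stood for its gene. R 4.3.3 with limma 3.58.1 (lmFit, eBayes) and Python 3.11.15 with scipy 1.17.1 were used, checked on simulated data. Permutations within dose-by-sex groups numbered 100000. Rats count as replicates.

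The members and lists were chosen with earlier results of these data known. Named genes are the members, the 3 most alike genes, and per list up to 4 called genes with the largest difference; the other genes named were chosen after their values were seen. Alternatives were other background corrections, scalings, filters, weights, samples, covariates, slide blocks, the methods' t-test and leaving out each rat. Correlations with marker lists, list counts over genes measured in the control group, list medians with the slide block and the type II list without Ager were added after seeing the data. Promoters are from RefSeq (GRCr8), matched for 5 of 5 members.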

Additional observations from a re-analysis of the deposited data

How the results depend on the processing

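No called result changed direction under the alternatives run. With the slide as a block, the Chial1 difference was 1.95 at 1000 ppm and 1.52 at 1500 ppm, that of Chia 1.59 and 1.49, and that of Chi3l1 -0.74 at 1500 ppm. Chial1 was below the call rule at 1500 ppm with normexp (0.46) and the unscaled series table (0.53), as was Chia with that table (0.56), and Chial1 passed it at 600 ppm with scaling to the array median (0.59), with that table (0.64) and with the slide block. The Chit1 sex difference was -0.23 (adjusted p = 0.104, limma) with the normexp correction, -0.26 (0.0626) with no filter and -0.26 (0.142) with the slide as a random block, and passed in 6 of 9 alternatives; leaving out a rat gave -0.30 to -0.20. Genes called at 600 ppm numbered 131, and 40 with normexp, 587 with no filter, 50 with probes well above background on all 24 arrays, 315 with array weights, 227 with the slide block and 87 with the methods' t-test. At 1000 ppm 348 became 562 with no filter, 225 on all 24 arrays and 569 with the series table unscaled. At 1500 ppm 260 became 95 with normexp, 479 with no filter, 151 on all 24 arrays and 405 with the slide block. List genes called went from 0 to 1 at 600 ppm with no filter, from 13 to 1 (Scgb3a2) at 1000 ppm with the slide block, and from 1 to 2 at 1500 ppm with no filter and to 2 (Cd2 and Il4r, both lower) with the slide block. Leaving out a rat gave 130 to 201 genes at 600 ppm (200 without control rat 3, 201 without low-dose rat 26), 212 to 500 at 1000 ppm (212 without rat 33) and 211 to 342 at 1500 ppm. The cause of these shifts was not tested. The Chial1 and Chia correlation was 0.93 to 0.96 and passed in 4 of 4 alternatives. No paired analysis was possible because the groups share no replicate numbers, and the slides that neighbouring doses share were used as a block instead. The number of arrays limits the precision.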
